A study of Homo sapiens with 6 samples.

Results

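Alcohol dehydrogenases and aldehyde dehydrogenases were followed through 10 genes: ADH1C, ADH5, ALDH1A1, ALDH1A3, ALDH1B1, ALDH2, ALDH3A1, ALDH3A2, ALDH3B1 and ALDH3B2. These were picked by gene symbol from the 60612 genes counted, and the pick was made with their difference between the groups in these same libraries already known. Their differences are therefore given as a description, with no test. All 10 symbols matched 1 Ensembl identifier each. RNA was sequenced from SKBR3, an established human breast cancer cell line whose ERBB2 (HER2) gene is amplified. The trastuzumab group held 3 libraries of SKBR3 cells kept for 30 weeks under increasing amounts of trastuzumab, an antibody against HER2, and is named SKBR3_HR in the labels. The parental group held 3 libraries of untreated SKBR3 cells. The labels do not say whether the drug was present at harvest, whether the resistant cells were a pool or a clone, or whether replicates came from separate cultures. Below, "under trastuzumab" names the trastuzumab group, whether or not the drug was present at harvest. Drug exposure, selection over the 30 weeks and time in culture cannot be told apart in this design. The p-values given for other genes therefore cover the scatter among these 6 libraries, and that scatter may be technical. In bulk RNA, fewer cells of a kind and less RNA per cell cannot be told apart.

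Alcohol dehydrogenases oxidise alcohols such as ethanol and retinol to aldehydes, and aldehyde dehydrogenases oxidise aldehydes on to carboxylic acids, both with NAD+ or NADP+ as the acceptor. Members of the ALDH1A group make retinoic acid, the ligand of the RAR nuclear receptors, from retinaldehyde. High ALDH1 activity is widely used to mark stem-like cells in breast tissue and breast cancer. The ALDH2 and ALDH1B1 enzymes work in mitochondria, and those of the ALDH3 group act on medium- and long-chain, aromatic and lipid-derived aldehydes.

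Libraries held 71.02 to 82.9 M counts under trastuzumab and 71.8 to 72.4 M counts in parental cells. Levels are CPM, counts per M of the library total scaled by trimmed mean of M values (TMM) factors, and a count of 0 allows up to 0.0372 to 0.0428 CPM (3 counts, counting error only). The luminal markers were all present, led by ERBB2 with 11050 CPM under trastuzumab and 7925 CPM in parental cells. Lists of other cell types were low apart from CDH5 (79.3 CPM under trastuzumab and 26.4 CPM in parental cells) and CD68 (43.0 and 14.8 CPM in the same order), while PECAM1, PTPRC and CD3E, which define endothelial cells, leukocytes and T cells, reached at most 0.31 CPM in any library. The 5 basal epithelial markers summed to 2.20 to 22.7 CPM under trastuzumab and 2.65 to 4.32 CPM in parental cells. Trastuzumab replicates 2 and 3 stood apart there: KRT14, a basal keratin, had 0.0571, 7.53 and 7.72 CPM in trastuzumab replicates 1 to 3 and at most 0.234 CPM in parental libraries.

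Of the 10 genes, ADH1C differed most, at 22.6 times the parental level under trastuzumab. ALDH3B1 was 2.48 times, ALDH1A3 1.67 times and ALDH3A2 1.25 times as high under trastuzumab, and ALDH3B2 was at 0.758 of its parental level. ADH5, ALDH1B1 and ALDH2 differed by 1.13-fold or less, and ALDH1A1 and ALDH3A1 were near the detection limit. The trastuzumab and parental libraries did not overlap for 6 of the 10 genes, where 57.5% of all 17854 tested genes showed none. Of the 6, 5 were higher under trastuzumab (28.3% of all tested genes) and 1 was lower (29.2%). In the edgeR fit across all genes, 9 of the 10 passed the filter on low counts, and 5 of these had an adjusted p below 0.05 (4 higher, 1 lower), against 49.3% of all tested genes (23.9% higher, 25.4% lower). Because this contrast chose the genes, nothing is read from these counts.

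**Figure D1:**
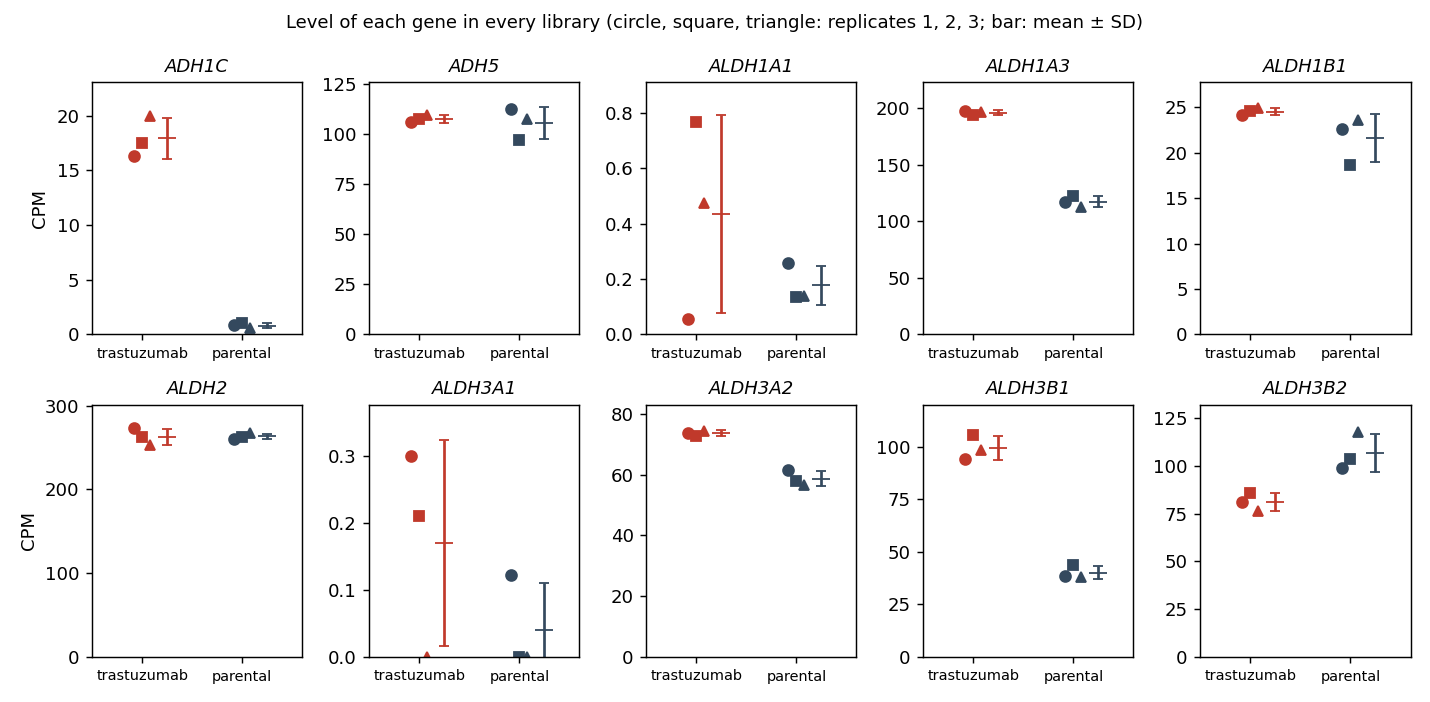
CPM (linear axis from 0, a different scale for each gene) of the 10 genes in each of the 3 trastuzumab and 3 parental libraries, with the mean and SD beside the points; an SD bar that would pass below 0 is cut there. ADH1C lay at 16.3 to 19.99 CPM under trastuzumab and 0.550 to 1.01 CPM in parental cells, while ADH5 and ALDH2 overlapped between the groups.

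Among the alcohol dehydrogenases, ADH1C encodes the gamma subunit of the class I enzymes, which oxidise ethanol and retinol and are best known from liver. ADH1C (ENSG00000248144, hg38 chromosome 4, 99336492 to 99353027, minus strand) had 16.3, 17.5 and 19.99 CPM in trastuzumab replicates 1 to 3 and 0.825, 1.01 and 0.550 CPM in parental replicates 1 to 3. Every trastuzumab library was far above every parental library, and the log2 fold change was 4.50 ± 0.19 (SE). In raw counts this was 1143 to 1603 under trastuzumab and 40 to 74 in parental cells, and the parental SD was 28.9% of the mean, against 10.5% under trastuzumab. The other class I genes are near-identical copies beside it, and the counting may split reads among them. ADH1A had at most 2 counts and ADH1B at most 9 in any library, so ADH1C took 99.6% ± 0.22 of class I counts under trastuzumab and 94.7% ± 4.93 in parental cells (SD, n = 3 each). ADH1C also overlaps ADH1B on its own strand.

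ADH5 encodes the class III enzyme, which oxidises the adduct of formaldehyde with glutathione and reduces S-nitrosoglutathione, and is made in most tissues. ADH5 (ENSG00000197894, chromosome 4, 99070978 to 99088801, minus strand) lies in the same gene cluster. It had 106, 108 and 110 CPM in trastuzumab replicates 1 to 3 and 113, 97.0 and 108 CPM in parental replicates. The groups overlapped, with a log2 fold change of 0.027 ± 0.056. Per length, ADH1C stood at 51.3% ± 4.50 of the ADH5 FPKM under trastuzumab and at 2.34% ± 0.794 in parental cells (SD, n = 3 each). FPKM is the deposited value in fragments per kb of gene per M fragments.

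The windows from 250 bases before to 50 after the start of these genes show how far the starts of this pair differ in base composition within one cluster. They are RefSeq sequences on GRCh38.p14, the hg38 assembly, at chr4:99352697-99352996 for ADH1C and chr4:99088739-99089038 for ADH5, both read on the minus strand. Capitals mark matches, on either strand, to a TATA box (TATAAA), a GC box (GGGCGG), the core bound by the aryl hydrocarbon receptor (GCGTG), an antioxidant response core (TGACNNNGC) or a retinoic acid response repeat (AGGTCA, any 5 bases, AGGTCA).
ADH1C: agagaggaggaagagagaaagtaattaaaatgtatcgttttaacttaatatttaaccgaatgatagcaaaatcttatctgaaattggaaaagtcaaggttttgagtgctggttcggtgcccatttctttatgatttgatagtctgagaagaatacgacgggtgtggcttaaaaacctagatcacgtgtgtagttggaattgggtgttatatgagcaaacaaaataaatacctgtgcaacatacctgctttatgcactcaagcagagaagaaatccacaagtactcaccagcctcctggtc
ADH5: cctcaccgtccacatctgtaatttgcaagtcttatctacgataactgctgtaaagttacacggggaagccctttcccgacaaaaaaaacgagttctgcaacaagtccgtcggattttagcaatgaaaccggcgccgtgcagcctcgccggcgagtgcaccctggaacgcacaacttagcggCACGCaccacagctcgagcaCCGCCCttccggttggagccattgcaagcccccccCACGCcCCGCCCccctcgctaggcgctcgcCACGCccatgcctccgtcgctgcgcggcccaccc

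The ADH1C window held 38% G and C with 6 CpG pairs and none of the motifs. The ADH5 window held 61.3% with 29 CpG pairs, 2 GC boxes and 3 matches to the aryl hydrocarbon receptor core. Over 35116 RefSeq windows of this length the median was 58.7% with 14 CpG pairs. A TATA box stood in 11.5% of them, a GC box in 45.0%, the aryl hydrocarbon receptor core in 36.5%, the antioxidant core in 13.3% and the retinoic acid repeat in 0.0057%. A match here is a run of letters, not a measured binding site. RefSeq windows were at hand for 7 of the 10 genes, with 9 starts, and 4 windows are shown.

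The retinaldehyde dehydrogenases ALDH1A1 and ALDH1A3 are cytosolic enzymes that make retinoic acid. ALDH1A3 (ENSG00000184254, chromosome 15, 100877714 to 100916626, plus strand) had 198, 193 and 197 CPM in trastuzumab replicates 1 to 3 and 117, 122 and 113 CPM in parental replicates. The groups lay far apart relative to their spread, with SDs of 1.15% and 4.16% of the mean in trastuzumab and parental libraries, and the log2 fold change was 0.74 ± 0.047. ALDH1A3-AS1, an antisense gene within ALDH1A3, stood at 4.08 CPM under trastuzumab and 4.19 CPM in parental cells on average, against means of 196 and 117 CPM for ALDH1A3 in the same order.

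ALDH1A1 was close to absent. It had 0.0571, 0.768 and 0.474 CPM in trastuzumab replicates 1 to 3 (4, 62 and 38 counts) and 0.257, 0.136 and 0.138 CPM in parental replicates (19, 10 and 10 counts). Trastuzumab replicate 1 was below every parental library and replicates 2 and 3 were above them, so the groups overlapped, with a log2 fold change of 1.29 ± 0.77. The same 2 libraries carried the basal keratins KRT14 and KRT5 (KRT5 at 0.614, 9.07 and 8.27 CPM in trastuzumab replicates 1 to 3, and at most 1.27 CPM in parental libraries), and the part of such transcripts in the ALDH1A1 value was not tested. Without trastuzumab replicates 2 and 3, an alternative chosen after the data were seen, the log2 fold change of ALDH1A1 was -1.601 ± 1.83, while those of ADH1C (4.36 ± 0.27), ALDH1A3 (0.75 ± 0.076) and ALDH3B1 (1.23 ± 0.098) kept their sign and size, the lone trastuzumab library being assumed to vary like the parental ones.

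ALDH2, the mitochondrial enzyme that clears acetaldehyde, held the most counts of the 10 genes and was even between the groups. It had 273, 263 and 253 CPM in trastuzumab replicates and 260, 263 and 267 CPM in parental replicates, with a log2 fold change of -0.0025 ± 0.044. Its paralogue ALDH1B1, also mitochondrial, had 24.1, 24.6 and 24.9 CPM in trastuzumab replicates and 22.6, 18.6 and 23.6 CPM in parental replicates. For ALDH1B1 the groups came close but did not overlap, and the parental libraries spread more widely (SD 12.1% of the mean, against 1.605% under trastuzumab). Its log2 fold change was 0.18 ± 0.090.

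The ALDH3 group differed in both directions. ALDH3B1, whose product oxidises aldehydes from lipid peroxidation, had 94.0, 106 and 98.6 CPM in trastuzumab replicates and 38.5, 43.7 and 38.2 CPM in parental replicates, a log2 fold change of 1.31 ± 0.065. ALDH3B2, its closest paralogue, had 81.1, 85.5 and 76.1 CPM in trastuzumab replicates and 98.8, 104 and 118 CPM in parental replicates, a log2 fold change of -0.40 ± 0.066. The 2 genes lie on chromosome 11, ALDH3B1 (ENSG00000006534) at 68008578 to 68029282 on the plus strand and ALDH3B2 (ENSG00000132746) at 67662162 to 67681200 on the minus strand. The ratio of ALDH3B1 to ALDH3B2 counts was 1.16, 1.24 and 1.30 in trastuzumab replicates and 0.390, 0.422 and 0.324 in parental replicates, so in counts ALDH3B1 led in every trastuzumab library and ALDH3B2 in every parental one. Per length ALDH3B2 stayed ahead in both groups, with a ratio of FPKM of 0.680 ± 0.038 under trastuzumab and 0.209 ± 0.027 in parental cells (SD, n = 3 each).

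ALDH3A2 encodes the fatty aldehyde dehydrogenase of the endoplasmic reticulum, the enzyme lost in Sjögren-Larsson syndrome. ALDH3A2 (ENSG00000072210, chromosome 17, 19648136 to 19677598) had 73.9, 72.7 and 74.5 CPM in trastuzumab replicates and 61.6, 57.8 and 56.8 CPM in parental replicates, without overlap, and a log2 fold change of 0.33 ± 0.055. Its neighbour ALDH3A1, the cytosolic enzyme abundant in cornea and stomach, was at 0.30, 0.21 and 0 CPM in trastuzumab replicates (21, 17 and 0 counts) and 0.12, 0 and 0 CPM in parental replicates (9, 0 and 0 counts). It was below the filter and a count of 0 there allows up to 0.0374 to 0.0413 CPM, so no fold change is given for ALDH3A1.

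The start windows of the 2 aldehyde dehydrogenase genes with the largest differences among those well above the detection limit are shown next, with the same capitals. For ALDH3B1, of 2 starts, it is the one with motif matches. That of ALDH1A3 is chr15:100879581-100879880 and that of the second RefSeq start of ALDH3B1 is chr11:68010077-68010376, both on the plus strand.
ALDH1A3: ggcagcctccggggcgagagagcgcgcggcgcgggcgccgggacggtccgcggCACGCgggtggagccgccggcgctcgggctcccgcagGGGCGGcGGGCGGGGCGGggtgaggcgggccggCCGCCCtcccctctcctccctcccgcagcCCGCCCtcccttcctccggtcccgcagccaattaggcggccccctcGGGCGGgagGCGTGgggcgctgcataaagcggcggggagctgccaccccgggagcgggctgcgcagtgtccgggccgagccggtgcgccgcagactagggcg
ALDH3B1: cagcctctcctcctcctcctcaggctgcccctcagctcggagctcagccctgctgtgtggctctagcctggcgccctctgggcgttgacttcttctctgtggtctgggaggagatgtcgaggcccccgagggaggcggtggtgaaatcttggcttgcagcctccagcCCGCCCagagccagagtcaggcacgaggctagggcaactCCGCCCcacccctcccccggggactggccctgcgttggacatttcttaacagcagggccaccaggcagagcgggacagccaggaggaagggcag

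The ALDH1A3 window was the richest in G and C of the 9 (81.7%, 46 CpG pairs), with 6 GC boxes and 2 matches to the aryl hydrocarbon receptor core. The ALDH3B1 window held 66.7% with 12 CpG pairs and 2 GC boxes. The windows of the genes that were higher under trastuzumab thus ran from 38% (ADH1C) to 81.7% (ALDH1A3) G and C, and no motif searched was in all of them. Gene counts do not show which start was used.

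Base composition and length can shift counts between libraries, so each gene was also taken from a second fit that removes a trend on transcript GC content and exonic length from each library. That fit also removes real changes linked to either property. ADH1C (4.599 ± 0.18), ALDH1A3 (0.64 ± 0.040), ALDH3B1 (1.02 ± 0.056) and ALDH3A2 (0.47 ± 0.045) stayed higher under trastuzumab, and ALDH3B2 (-0.79 ± 0.049) stayed lower. In that fit 7 of the 9 tested members had an adjusted p below 0.05, against 38.7% of all genes in it, and nothing is read from this count either, since the same contrast chose the genes. ADH5, with 41.0% GC in its transcript, went to 0.34 ± 0.049 and ALDH2 to 0.18 ± 0.036, while ALDH1B1 went to -0.019 ± 0.082. The evenness of ADH5 and ALDH2 between the groups thus depended on the correction, and the direction of ALDH1B1 turned with it. ALDH3B1 and ALDH3B2 differed in direction in both fits. Their transcript GC content was 59.5% and 59.7% and their exonic length 6626 and 3235 bases, and the part of either property was not tested.

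**Figure D2:**
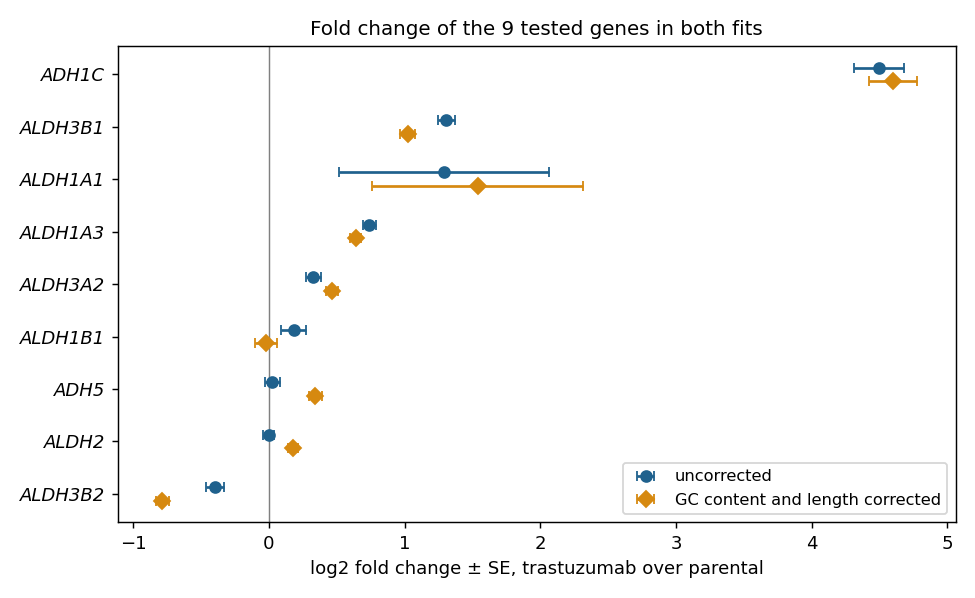
log2 fold change with its SE of the 9 tested genes, trastuzumab over parental (n = 3 libraries each), in the uncorrected fit (circles) and the fit corrected for GC content and length (diamonds). ADH1C stands at 4.50 and 4.599, ALDH3B2 at -0.40 and -0.79, and ADH5 at 0.027 and 0.34.

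Set on a per-length scale, the order of the genes differed between the groups. In parental cells the highest mean FPKM were those of ALDH3B2 (26.2 ± 2.17), ALDH2 (24.4 ± 0.114), ALDH1A3 (19.8 ± 0.985) and ADH5 (19.6 ± 1.47), of which ALDH3B2 and ALDH2, and ALDH1A3 and ADH5, did not differ beyond their SDs. Under trastuzumab ALDH1A3 led with 31.5 ± 0.424 FPKM, followed by ALDH2 (23.2 ± 0.911) and then ADH5 (19.0 ± 0.288) and ALDH3B2 (18.95 ± 1.098), which did not differ beyond their SDs. ALDH3B1 reached 12.9 ± 0.737 FPKM under trastuzumab, against 5.45 ± 0.446 in parental cells, and ADH1C reached 9.77 ± 1.01 FPKM, against 0.453 ± 0.132. The length behind the deposited FPKM matters for ALDH3A2. There the count and FPKM values imply a length of 17.4 kb, 2.70 times its 6.46 kb of exon in GENCODE 29, where the ratio was 0.97 to 1.29 for the other 7 genes that reached 1 FPKM in a library. On GENCODE 29 lengths ALDH3A2 stood at 11.4 CPM per kb under trastuzumab and 9.10 in parental cells, rank 6 under trastuzumab and rank 5 in parental cells, in place of ranks 8 and 7 by FPKM.

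**Figure D3:**
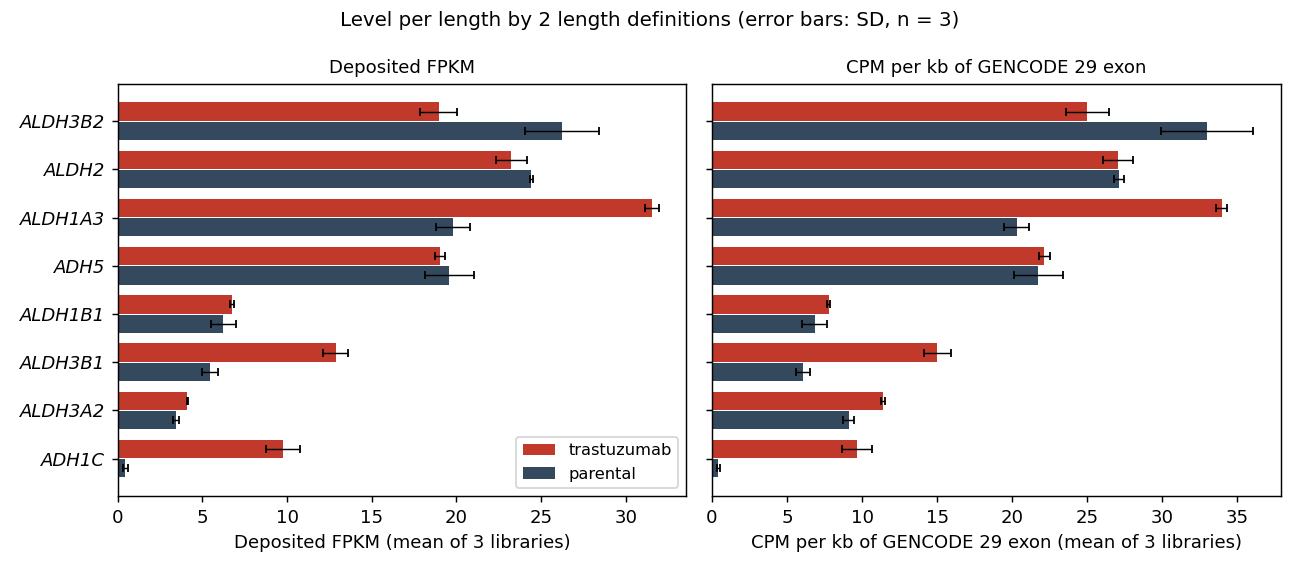
Mean level per length (SD as error bars, n = 3) of the 8 genes above the detection limit, trastuzumab above parental, as deposited FPKM on the left and as CPM per kb of GENCODE 29 exon on the right. ALDH1A3 leads under trastuzumab (31.5 FPKM) and ALDH3B2 in parental cells (26.2 FPKM) on either scale, while ALDH3A2 is the gene whose place shifts most between the scales.

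The 10 genes together summed to 864 ± 8.64 CPM under trastuzumab and 715 ± 8.94 CPM in parental cells (SD, n = 3 each). This was 61.4% ± 0.054 of the counts of all 26 genes of the human ADH and ALDH families under trastuzumab and 57.8% ± 0.505 in parental cells. ALDH2 alone made up 18.7% ± 0.577 of the family under trastuzumab and 21.3% ± 0.0053 in parental cells.

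The remaining ADH and ALDH genes, with ADHFE1, made a list of 17, of which 10 were tested. By edgeR 2 rose, 3 fell and the other 5 missed the threshold, where 49.3% of all tested genes passed (23.9% higher, 25.4% lower). The list's median log2 fold change was -0.036, and that of all tested genes -0.0057. ALDH1L2, the mitochondrial 10-formyltetrahydrofolate dehydrogenase, fell most, to 5.41, 2.91 and 4.64 CPM in trastuzumab replicates, against 9.60, 9.17 and 8.18 CPM in parental replicates (log2 fold change -1.06 ± 0.19, edgeR adjusted p = 0.000249). No trastuzumab library reached a parental one. ALDH5A1, which oxidises succinic semialdehyde, fell to 12.998 ± 0.986 CPM under trastuzumab, against 17.2 ± 0.939 CPM in parental cells (-0.40 ± 0.097, adjusted p = 0.00233). Both stayed lower in the corrected fit (-0.67 and -0.35, adjusted p = 0.00687 and 0.00617).

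The proline-pathway enzyme ALDH4A1 rose to 157 ± 10.1 CPM under trastuzumab, against 126 ± 8.38 CPM in parental cells (log2 fold change 0.32 ± 0.058, edgeR adjusted p = 0.000233), and ALDH16A1 to 47.3 ± 3.48 CPM, against 35.4 ± 3.43 CPM (0.42 ± 0.080, adjusted p = 0.000366). Neither call held in the corrected fit, where ALDH4A1 stood at -0.067 (adjusted p = 0.211) and ALDH16A1 at 0.036 (adjusted p = 0.72). Both calls were also lost with limma on log2(FPKM + 1) without a filter (adjusted p = 0.0681 for ALDH4A1 and 0.052 for ALDH16A1). ALDH6A1, of valine breakdown, fell slightly to 32.7 ± 1.25 CPM under trastuzumab, against 37.2 ± 0.974 CPM (-0.19 ± 0.069, adjusted p = 0.0314), a call lost in the corrected fit (0.13, adjusted p = 0.139) and without trastuzumab replicate 1 (0.0802) or 3 (0.108) or parental replicate 1 (0.0872) or 2 (0.0656), and without trastuzumab replicates 2 and 3 (0.159). It was also lost with DESeq2 (adjusted p = 0.0589) and with no filter on low counts (0.0531). ALDH1L1 (log2 fold change 0.0044), ALDH7A1 (-0.077), ALDH9A1 (-0.14), ALDH18A1 (0.087) and ALDH1A2 (1.36 ± 0.88, at most 0.378 CPM on average) did not pass in the uncorrected fit. ALDH7A1 passed with the correction (0.27, adjusted p = 0.000198) and with the replicate block added to it (0.000348). ALDH9A1 (adjusted p = 0.0565) passed with library totals alone (-0.19, 0.0105), with a minimum of 1 CPM in 3 libraries (0.0424), with limma on filtered FPKM (0.0116 and 0.012 with the larger and the smaller pseudocount) and without parental replicate 1 (0.0165). ALDH1A2 had a log2 fold change of 3.42 and passed without parental replicate 3 (adjusted p = 0.0132). ADH6 and ADH7 had no count in any library, and ADH1A, ADH1B, ADH4, ALDH8A1 and ADHFE1 had at most 25 counts in any.

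Of 29 listed genes that carry, make and sense retinoids, 21 were tested. By edgeR 7 rose, 2 fell and 12 missed the threshold, where 23.9% of all tested genes rose and 25.4% fell. The list's median log2 fold change was 0.40, against -0.0057 over all tested genes. In the corrected fit 7 rose and 2 fell, where 38.7% of all genes passed. The median was then 0.14 (-0.021 over all genes in that fit). STRA6, the cell-surface receptor that imports retinol, rose to 23.9, 28.0 and 26.7 CPM in trastuzumab replicates, against 10.5, 10.8 and 9.37 CPM in parental replicates (1.36 ± 0.095, adjusted p = 8.86e-09). DHRS3, which reduces retinaldehyde back to retinol and opposes the ALDH1A step, rose to 393, 441 and 414 CPM in trastuzumab replicates, against 162, 168 and 171 CPM in parental replicates (1.32 ± 0.049, adjusted p = 8.95e-12). For both genes every trastuzumab library was above every parental one, and the corrected values were 1.09 and 0.99.

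RDH16, a microsomal retinol dehydrogenase, rose to 2.57 ± 0.262 CPM under trastuzumab, against 1.15 ± 0.153 CPM in parental cells (log2 fold change 1.16 ± 0.24, edgeR adjusted p = 0.000735), a call lost without trastuzumab replicates 2 and 3 (adjusted p = 0.0643). The retinoid X receptor RXRB rose to 71.4 ± 1.26 CPM, against 49.6 ± 2.27 CPM (0.52 ± 0.057, adjusted p = 1.1e-06). The other 3 risers, RARA, RARG and RXRA, were named after their values were seen and are receptors too, with log2 fold changes of 0.49, 0.52 and 0.52. All 4 receptors were smaller with the correction, at 0.17 (RXRB), 0.12 (RARA), 0.18 (RARG) and 0.33 (RXRA), and still passed. The 2 that fell, also named after the values were seen, were the retinol dehydrogenase RDH11 (-0.51 ± 0.059) and the retinoic acid carrier CRABP2 (-0.15 ± 0.045). The uncorrected call of CRABP2 was lost without trastuzumab replicate 1 (adjusted p = 0.0836) or parental replicate 2 (0.0633). With the correction RDH11 stood at -0.25 and CRABP2 at -0.52 (edgeR adjusted p = 0.000411 and 1.23e-08). Which of the 2 fell more thus depended on the fit. CYP26A1 and CYP26B1, named after their values were seen, break down retinoic acid and are known targets of its receptors. CYP26A1 stood at 0.13 CPM under trastuzumab and 0.14 CPM in parental cells, and the groups overlapped. CYP26B1 stood at 0.574 ± 0.075 CPM under trastuzumab and 0.183 ± 0.177 CPM in parental cells, without overlap, with a log2 fold change of 1.65 ± 0.67 (1.22 to 2.79 with 1 library left out) that missed the threshold (edgeR adjusted p = 0.0535).

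**Figure D4:**
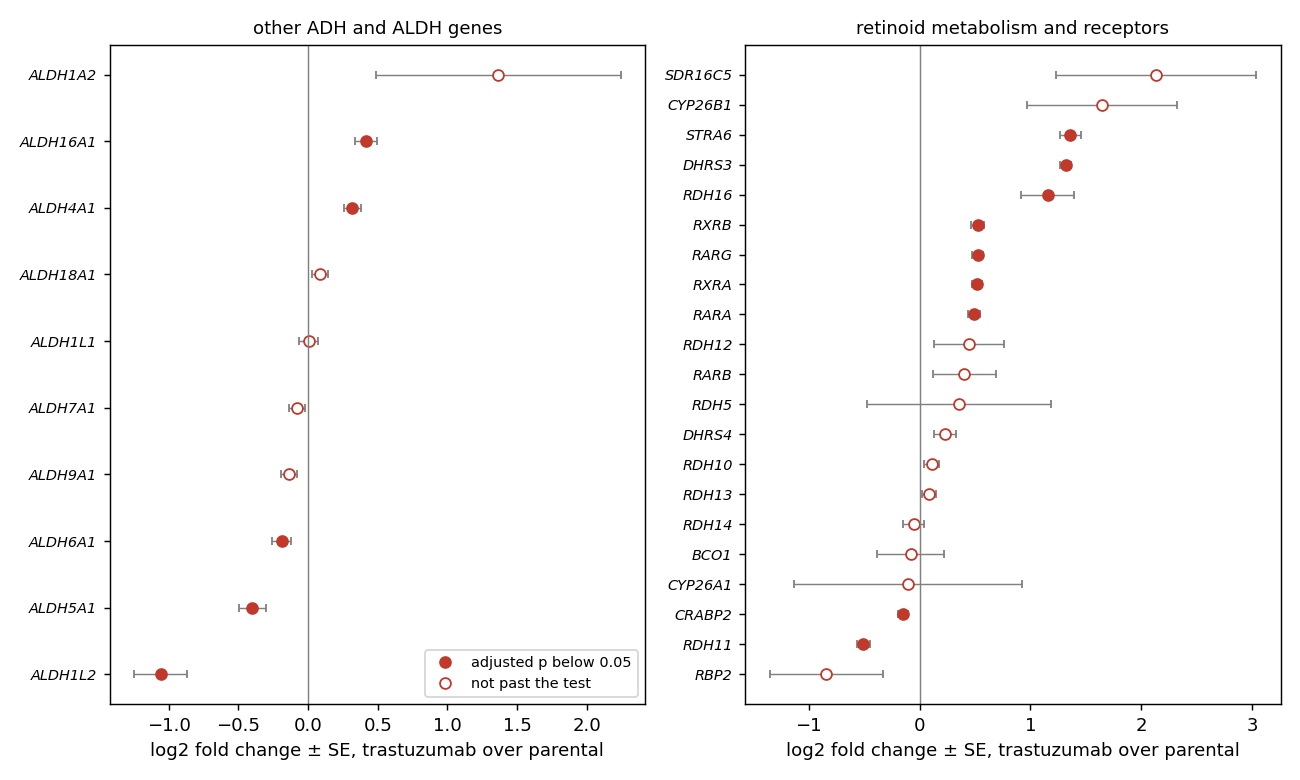
log2 fold change with its SE, trastuzumab over parental (n = 3 libraries each, uncorrected fit), of the 10 other tested ADH and ALDH genes on the left and the 21 tested retinoid genes on the right; filled points had an edgeR adjusted p below 0.05. On the left ALDH1L2 is lowest at -1.06, and on the right STRA6 (1.36) and DHRS3 (1.32) are the highest filled points.

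Aldo-keto and carbonyl reductases turn aldehydes and ketones to alcohols and so act against the aldehyde dehydrogenases on shared substrates. They were listed together with AOX1 and XDH, which are oxidases and not reductases. AOX1 was not tested, and XDH missed the threshold. This list had 7 risers, 3 fallers and 5 below the threshold among 15 tested (18 listed, median 0.27). With the correction 5 rose and 4 fell (median -0.013). Over all tested genes 23.9% rose and 25.4% fell, and 38.7% of all genes passed with the correction. DCXR, named after its values were seen, went from 0.24 (edgeR adjusted p = 0.00115) to -0.22 with the correction (adjusted p = 0.000286). AKR1B10, an efficient retinaldehyde reductase, rose to 19.4 ± 1.06 CPM under trastuzumab, against 9.06 ± 1.04 CPM in parental cells (1.098 ± 0.11, adjusted p = 2.98e-07). The hydroxysteroid dehydrogenases AKR1C1 and AKR1C3 rose to 2.63 ± 0.433 and 4.59 ± 0.355 CPM under trastuzumab, against 1.40 ± 0.112 and 2.84 ± 0.249 CPM. They belong to a near-identical family whose reads may be split, and the call of AKR1C3 was lost without trastuzumab replicates 2 and 3 (adjusted p = 0.141). CBR4 fell to 4.43 ± 0.677 CPM, against 6.32 ± 0.527 CPM (-0.51 ± 0.16, adjusted p = 0.013), a call lost with the correction (-0.013), without trastuzumab replicate 3 (adjusted p = 0.0655) without parental replicate 1 (0.0605) and without trastuzumab replicates 2 and 3 (0.118). Without those 2 libraries the list had 5 calls, against 10.

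Enzymes that supply aldehydes or use the acetate formed from acetaldehyde had 2 risers and 3 fallers among 15 tested genes in the uncorrected fit (18 listed, median 0.14). Of all tested genes 23.9% rose and 25.4% fell in that fit, and 38.7% of all genes passed with the correction. With the correction 7 rose and 2 fell, and the 5 uncorrected calls went to 3 without trastuzumab replicate 2 and to 2 without replicates 2 and 3. FAR1, the fatty acyl-CoA reductase of peroxisomes, fell to 34.3 ± 1.85 CPM under trastuzumab, against 64.7 ± 6.21 CPM in parental cells (-0.91 ± 0.075, adjusted p = 4.78e-08, and -0.26 with the correction). The mitochondrial acetyl-CoA synthetase ACSS1 rose to 11.9 ± 0.867 CPM, against 7.31 ± 1.53 CPM (0.70 ± 0.14, adjusted p = 0.000589), while the cytosolic ACSS2 fell to 169 ± 7.22 CPM, against 189 ± 6.33 CPM (-0.16 ± 0.048, adjusted p = 0.00922, and adjusted p = 0.07 without trastuzumab replicate 3 and 0.155 without replicates 2 and 3). The call of ACSS1 was lost with limma on log2(FPKM + 1) without a filter (adjusted p = 0.0526). ACSS3 had a log2 fold change of -0.32 and an adjusted p of 0.00819, but 0.31 and 0.00326 with the correction, so its direction depended on the fit. The uncorrected call was lost without trastuzumab replicate 2 (0.0505), without parental replicate 1 (0.0613) and without trastuzumab replicates 2 and 3 (0.0834).

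In the gene battery of the aryl hydrocarbon receptor, to which ALDH3A1 belongs, all 11 genes were tested. There were 4 risers, 3 fallers and 4 below the threshold (median -0.07), where 23.9% of all tested genes rose and 25.4% fell. CYP1A1, the classic target, rose to 69.7, 68.6 and 68.4 CPM in trastuzumab replicates, against 17.7, 20.3 and 16.4 CPM in parental replicates (1.93 ± 0.078, adjusted p = 2.32e-11). The receptor AHR itself fell to 14.0, 15.3 and 16.0 CPM in trastuzumab replicates, against 35.5, 34.1 and 30.9 CPM in parental replicates (-1.15 ± 0.084, adjusted p = 1.39e-08). The groups did not overlap for either gene, and the corrected values were 1.69 and -0.63. NQO1, a quinone reductase, rose to 769 ± 22.9 CPM, against 466 ± 13.3 CPM (0.72 ± 0.042). ALDH3A1 stayed near the detection limit in both groups.

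The nearest tested protein-coding genes beside the 10, up to 2 on each side, gave 29 neighbours. Some lie far off, such as ZNG1E at 27270144 bases from ALDH1B1. Of the 29, 7 rose, 8 fell and 14 missed the threshold (median -0.21, against -0.0057 over all tested genes). Over all tested genes 49.3% passed (23.9% higher, 25.4% lower), and 38.7% of all genes passed with the correction. Scaling by library totals alone gave 7 higher and 13 lower, and the correction 8 higher and 5 lower. The median with the correction was 0.098, against -0.021 over all genes in that fit, so its sign turned with the fit. Without trastuzumab replicates 2 and 3 the calls numbered 10, against 15. Beside the ADH cluster, the translation initiation factor EIF4E fell to 41.8 ± 2.44 CPM under trastuzumab, against 75.0 ± 5.56 CPM in parental cells (-0.84 ± 0.068, adjusted p = 3.98e-08), and C4orf54 rose to 1.09 ± 0.032 CPM, against 0.432 ± 0.181 CPM (1.34 ± 0.40, adjusted p = 0.0108, and 0.0959 without trastuzumab replicates 2 and 3). On chromosome 11, TBX10 lies 22602 bases from ALDH3B2, on the side away from ALDH3B1, and fell to 2.43 ± 0.272 CPM, against 5.52 ± 0.367 CPM (-1.18 ± 0.17, adjusted p = 2.36e-05). UNC93B1, which encodes a chaperone of endosomal Toll-like receptors, lies between the pair, 3596 bases from ALDH3B1, and rose to 225 ± 15.0 CPM, against 134 ± 7.44 CPM (0.75 ± 0.056, adjusted p = 1.8e-08). The kinase gene MAPK7, 264592 bases from ALDH3A2, rose (0.78 ± 0.11). So did the adaptor gene SHB, 323453 bases from ALDH1B1 (0.76 ± 0.084).

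Among the genes whose pattern over the 6 libraries was nearest to ADH1C, by Euclidean distance between log2(CPM + 0.5) values each centred on the gene's own mean, were PIGR (0.41), SCGB1D2 (0.55), FAM83A (1.09) and MGP (1.49), out of 11857 protein-coding genes. PIGR, the transporter of polymeric immunoglobulin, had 70.1 ± 6.33 CPM under trastuzumab and 5.31 ± 0.70 CPM in parental cells. SCGB1D2, a secretoglobin, had 7.30 ± 0.33 CPM under trastuzumab and 0.127 ± 0.029 CPM in parental cells. Nearest to ALDH3B2 were PGBD2 (0.054), PC (0.068), PLP2 (0.083), PDLIM2 (0.10) and TIMP2 (0.11), with log2 fold changes of -0.38 to -0.45. Choosing genes by distance over these same 6 libraries makes differences in the same direction follow from the choice.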

How the data were processed

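Per the labels' protocols, libraries were made from 1 µg of total RNA with a directional NEBNext Ultra II kit. STAR 2.4.2a and the build hg38 are named, per the submitters' processing notes. How reads were counted (program, strand, annotation, filters) is not given in the sources used here. Overlapping genes may therefore share reads. The authors deposited raw counts for 60612 genes and FPKM values, to 2 decimals, for 33686 genes. All 6 libraries were used and no value column was left out.

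The test was that of edgeR 4.0.16, run in R 4.3.3 on the deposited counts (TMM, filterByExpr by group, robust quasi-likelihood F test, trastuzumab minus parental, no covariate), with Benjamini-Hochberg adjustment over 17854 tested genes. "Rose" and "fell" mean an adjusted p below 0.05. Fold changes of the tested genes come from this fit with their SE, and levels are mean ± SD over n = 3 libraries. The corrected fit adds per-library offsets from splines (5 degrees of freedom) on GC content of the longest transcript and exonic length, both from GENCODE 29. Symbols came from a gene name table. Scripts were tested on simulated counts. Between replicates of a group the chi-square per degree of freedom was 16.2 to 26.0, above counting error alone, so no library repeated the sequencing of another. Separate libraries made from the same culture or the same RNA cannot be told apart by this value.

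The members, the lists, the tests and the naming rule were chosen with earlier results of these data known. Named genes are all members, the other tested family genes, and from each further list the called genes of at least 1 CPM in the higher group with the largest change (up to 4, or 6 neighbours). A few genes that this rule names are not reported here. Alternatives were other scalings, filters, DESeq2 1.42.0, limma 3.58.1 on log2(FPKM + 1) and log2(FPKM + 0.1), the replicate block, the correction, and leaving out libraries.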

Additional observations from a re-analysis of the deposited data

How the results depend on the processing

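The count of all changed genes, 8808, ran from 6531 to 8776 over the other settings that kept every library, and from 7882 to 8689 with 1 library left out. Without trastuzumab replicates 2 and 3, chosen after the data were seen, it was 5926. The members past the threshold numbered 5 to 7. Library totals alone gave ADH5 -0.028 and ALDH2 -0.057, and limma on log2(FPKM + 1) gave ADH1C 2.89 and 4 higher and 4 lower reductases. Changed other ADH and ALDH genes went to 3 with the correction, with the correction and replicate block, and with limma on log2(FPKM + 1) without a filter, against 5. That limma setting gave 6 changed reductases, against 10, and 3 changed genes of aldehyde supply and acetate use, against 5. The aldehyde and acetate list had 9 with the correction, 8 with the replicate block added, 3 to 5 with 1 library left out and 2 without trastuzumab replicates 2 and 3, where the reductases had 5. Directions turned in the corrected fit for ALDH4A1 (-0.067, and -0.067 with the block), ALDH6A1 (0.13, and 0.12 with the block) and ALDH7A1 (0.27 in each). The cause was not tested. Without the correction, the replicate block gave 8653 changed genes and 5 members past the threshold. Deviations of same-numbered libraries correlated at 0.0198 to 0.0365, under 0.1, so the numbers were not taken to pair samples, though each library correlated best with its own number. Depth limits ALDH1A1 and ALDH3A1, which had at most 62 counts.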
